A study of Mus musculus with 22 samples.

Results

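The genes described here sense, signal and repair breaks in DNA. A list of 40 such genes was taken (checkpoint kinases and chromatin mediators, homologous recombination, end joining, single-strand break repair and the Fanconi pathway), and a gene was kept if the array held a probe annotated with its single symbol. That left 36 genes of 19752 measured in all; Rnf8, Rbbp8, Xrcc2 and Dclre1c had no such probe and are not analysed here. The study profiled medullary epithelial cells of the mouse thymus, called MECs in the labels, on Affymetrix expression arrays, and sorted them as DAPI- CD45- Ly51lo MHCIIhi cells from treated mice. All 22 arrays were from C57Bl/6 mice, of Aire+/+ genotype (wild type, WT) or Aire-/- genotype (knockout, KO). Both genotypes received DMSO, the vehicle, or the treatments labelled Etopo, Topo, or Etopo Topo together (EtopoTopo below). The labels give the drugs only in this short form, commonly read as etoposide (against type II topoisomerases) and topotecan (against topoisomerase I); doses and times were not used here. There were 3 arrays in each group except KO Etopo and KO EtopoTopo, which had 2. Whether RNA of 1 mouse or of several went onto an array is not stated, and p-values therefore cover the spread among these arrays, part of which may be technical.

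The mice were 6 weeks old for 15 arrays and 4 weeks old for 7 arrays, namely the 5 EtopoTopo arrays, WT DMSO 3 and WT Etopo 3. In knockouts age and EtopoTopo cannot be told apart. The titles of WT EtopoTopo 1 and 2 name both drugs, whereas their treatment label names Etopo alone; they were kept with the titles. The 3 arrays labelled male (WT DMSO 1, WT Etopo 2 and WT Topo 2) carried female transcripts like all others: log2 intensity was 11.38 to 12.56 for Xist over the 22 arrays and 5.15 to 6.07 for the Y-linked Kdm5d.

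Aire is a transcriptional regulator that lets MECs express genes of many peripheral tissues, and it is known to associate with topoisomerases and with proteins of the DNA break response. Topoisomerase poisons trap the enzyme on cut DNA, and the breaks are sensed by the ATM, ATR and DNA-PK kinases. Breaks are then rejoined by end joining at any stage of the cell cycle, or by homologous recombination in dividing cells, where many recombination and Fanconi genes are transcribed mainly in S and G2 phase.

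Promoters are shown here because cell cycle genes often carry recognisable promoter words. They are those of genes that passed the test below in WT EtopoTopo, or in KO against WT without drug, where a window was matched. Those of Trp53bp1, Xrcc5 and Parp1, which passed only in KO EtopoTopo, are not shown. Each window runs from 250 bases before to 50 bases after the RefSeq start (GRCm38.p6), 5′ to 3′ on the gene's strand. Capitals mark the words searched on both strands, overlaps with another word allowed: the E2F words TTTCCCGC, TTTCGCGC, TTTGCCGC and TTTGGCGC, the CHR word TTTGAA, and CCAAT. The windows are Brca1 (chr11:101551906-101552205, minus strand, overlapping Nbr1), Bard1 (chr1:71102923-71103222, minus strand), Fanci (chr7:79392088-79392387, plus strand, overlapping Rlbp1), Xrcc4 (chr13:90089559-90089858, minus strand, overlapping Tmem167) and Parp2 (chr14:50807666-50807965, plus strand, overlapping Rpph1).
Brca1: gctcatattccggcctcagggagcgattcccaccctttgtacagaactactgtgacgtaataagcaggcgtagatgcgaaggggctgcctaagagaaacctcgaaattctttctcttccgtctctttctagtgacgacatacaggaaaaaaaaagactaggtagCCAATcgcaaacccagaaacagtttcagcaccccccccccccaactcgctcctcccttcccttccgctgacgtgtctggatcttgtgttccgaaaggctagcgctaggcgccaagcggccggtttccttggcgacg
Bard1: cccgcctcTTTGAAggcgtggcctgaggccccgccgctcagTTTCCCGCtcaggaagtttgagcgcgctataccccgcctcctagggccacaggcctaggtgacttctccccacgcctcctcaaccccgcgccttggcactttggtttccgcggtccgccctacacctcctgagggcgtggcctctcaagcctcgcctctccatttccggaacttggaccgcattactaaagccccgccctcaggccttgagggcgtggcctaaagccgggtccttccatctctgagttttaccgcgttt
Fanci: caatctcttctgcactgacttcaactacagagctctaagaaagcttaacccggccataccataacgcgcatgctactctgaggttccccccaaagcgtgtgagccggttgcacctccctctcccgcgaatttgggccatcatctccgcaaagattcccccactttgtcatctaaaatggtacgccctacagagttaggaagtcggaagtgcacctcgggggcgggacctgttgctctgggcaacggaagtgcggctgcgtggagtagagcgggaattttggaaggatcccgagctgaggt
Xrcc4: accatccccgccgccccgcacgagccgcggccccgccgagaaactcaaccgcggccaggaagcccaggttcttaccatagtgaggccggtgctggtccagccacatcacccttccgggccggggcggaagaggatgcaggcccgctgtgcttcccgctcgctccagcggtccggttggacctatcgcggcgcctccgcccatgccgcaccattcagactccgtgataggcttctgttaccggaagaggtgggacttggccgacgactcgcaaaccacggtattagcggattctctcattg
Parp2: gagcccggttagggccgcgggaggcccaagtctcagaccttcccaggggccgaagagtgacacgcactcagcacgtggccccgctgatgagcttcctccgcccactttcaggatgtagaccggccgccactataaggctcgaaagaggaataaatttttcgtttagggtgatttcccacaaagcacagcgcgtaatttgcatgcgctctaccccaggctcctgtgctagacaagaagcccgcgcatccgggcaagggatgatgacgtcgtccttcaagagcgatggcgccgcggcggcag
In Brca1 a CCAAT word starts at position -86 from the start site. Bard1 holds the E2F word TTTCCCGC at -209 and the CHR word at -242. None of the words is in the Fanci, Xrcc4 or Parp2 window. RefSeq windows were matched for 29 of the 36 genes; Nbn, Rad50, Rad54b, Prkdc, Exo1, Wrn and Fancd2 were not matched. Over their 32 windows an E2F word was in 15.6%, the CHR word in 6.25% and CCAAT in 50%, against 2.26%, 17.9% and 37.4% of all 32851 windows. In the windows of a list of mitosis genes the CHR word was in 73.1% and an E2F word in 3.85%. For a list of DNA replication genes these shares were 22.6% and 38.7%. Between windows of the cycle-linked repair genes named below and of the other repair genes, E2F shares were 16.7% and 15%. The CHR shares there were 16.7% (2 of 12 windows) and 0% (0 of 20), against 17.9% of all windows. The CCAAT shares were 58.3% (7 of 12) and 45% (9 of 20). For the mitosis and DNA replication lists the CCAAT shares were 80.8% and 54.8%. These are descriptions of letters, not of bound sites.

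Replicate arrays of a group correlated at 0.961 to 0.997 over all genes. The sorted cells carried epithelial and MEC transcripts on every array, with log2 intensities of 10.37 to 10.92 for Epcam, 12.68 to 13.64 for H2-Aa and 11.80 to 12.60 for Cd80. The Aire probe read 11.27 to 12.44 in wild types and 11.43 to 12.96 in knockouts, so it does not report the deletion and checks nothing. Csn1s2a, an Aire-dependent gene, read 9.25 to 11.15 on the WT arrays and 6.50 to 8.39 on the KO arrays, with no overlap. WT DMSO 1 and KO DMSO 1 stood apart in thymocyte transcripts: the mean of 16 of 18 listed markers measured was 8.18 and 8.63 there and 6.88 to 7.51 on the other 20 arrays. Of those markers 5 lay near the level of silent genes, as defined below, and 0 were at 0. The sort had removed CD45+ cells. Ptprc, which encodes CD45, read 10.04 on KO DMSO 1, 8.98 on WT DMSO 1 and 8.43 on KO Topo 1. On all other arrays it read 7.04 to 7.72. KO Topo 1 also had the highest thymocyte mean of the other 20 arrays, 7.51. KO EtopoTopo 1 had the narrowest spread of values of any array, with 3.89 log2 units between the 10th and 90th percentile against up to 5.01.

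Across 12 comparisons, 18 pairs of a gene and a comparison passed limma's test at an adjusted p under 0.05, 3 of them higher and 15 lower, over 11 genes; 25 genes passed in none. Without drug, 4 of 36 genes differed between KO and WT (3 higher, 1 lower), against 19.4% of all genes (7.4% higher, 12% lower). In wild types 0 passed under Etopo (background 0.00506%), 1 fell under Topo (2.21%; lower 1.38%) and 6 fell under EtopoTopo (10.9%; lower 7.28%). In knockouts 0 passed under Etopo (0%), 0 under Topo (1.03%) and 6 fell under EtopoTopo (22.8%; lower 11.7%). No repair gene rose under any drug on these values; after quantile normalization Rnf168 (0.50, limma adjusted p = 0.05) and Xrcc3 (0.50, 0.0197) did in KO EtopoTopo, and without KO EtopoTopo 2 a set of 4 did, named below. At an unadjusted p under 0.05, 2 genes passed in WT Etopo, 8 in KO Etopo and 14 in KO Topo, where 5.55%, 3.58% and 11.6% of all genes did. In the direct comparisons of WT treatments, 0 genes passed for Topo against Etopo (0.00506%; at an unadjusted p under 0.05, 3 genes and 4.45% of all) and 1 fell for EtopoTopo against Etopo (3.71%; lower 2.47%). In bulk arrays fewer cells of a type and less RNA per cell cannot be told apart.

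**Figure D1:**
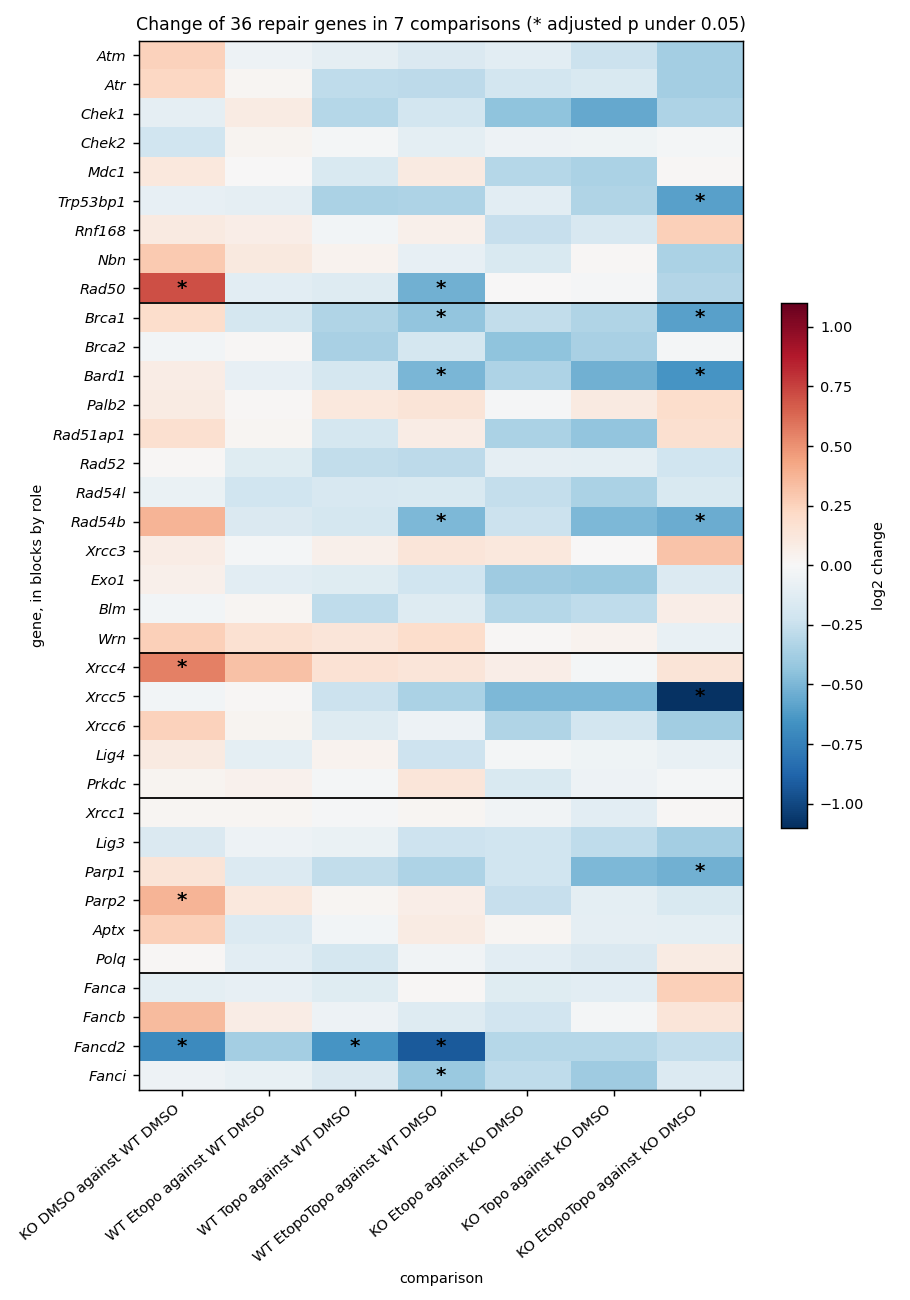
Log2 change of the 36 repair genes (vertical axis, in blocks by role) in 7 comparisons (horizontal axis), blue for lower and red for higher, with an asterisk at an adjusted p under 0.05. Fancd2 is blue in all columns, from -0.92 to -0.26, and the only red asterisks are Rad50, Xrcc4 and Parp2 in KO against WT.

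The Fanconi genes act in the repair of crosslinked DNA and stalled forks. Fancd2, which is ubiquitinated with its partner Fanci when that pathway is switched on, was the gene with the most calls. Its log2 intensity was 7.87, 7.48 and 7.70 on the WT DMSO arrays and 7.10, 6.87 and 6.98 on the KO DMSO arrays. Both sets were separate, and Fancd2 was lower in knockouts (log2 change -0.70 ± 0.12 SE, n = 3 and 3, limma adjusted p = 0.000229). On drug-treated WT arrays it read 7.44, 7.07 and 7.43 under Etopo, 6.94, 7.02 and 7.15 under Topo, and 6.78, 6.65 and 6.86 under EtopoTopo. Every drug-treated WT array lay below every WT DMSO array. On the log2 scale the change was -0.65 ± 0.12 under Topo (limma adjusted p = 0.00645) and -0.92 ± 0.12 under EtopoTopo (6.84e-05). Under Etopo the difference of -0.37 ± 0.12 did not pass (adjusted p = 0.547). EtopoTopo was lower than Etopo alone by 0.55 ± 0.12 (limma adjusted p = 0.0196). The Fancd2 calls in KO against WT, WT Topo and WT EtopoTopo all used the same 3 WT DMSO arrays. Their mean, 7.68, was the highest of any group, with WT Etopo next at 7.31.

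As a reference for low signal, 1194 olfactory and vomeronasal receptor genes, which are mostly silent in thymus, had a 95th percentile of 7.11. Fancd2 lay below it on 10 of 10 KO arrays and on 0 of 3 WT DMSO arrays. The WT Topo mean, 7.04, and the WT EtopoTopo mean, 6.76, also lay below it, so no fold is given for Fancd2. Over all arrays the mean of 7 genes lay below that level (Chek2, Palb2, Rad51ap1, Fancb, Fancd2, Fanci and Polq), and 29 lay at or above it. In treated knockouts Fancd2 stayed in a narrow range, at 6.70 and 6.64 under Etopo, 6.68, 6.66 and 6.68 under Topo, and 6.76 and 6.68 under EtopoTopo. All lay below the KO DMSO arrays, by 0.31 ± 0.14, 0.31 ± 0.12 and 0.26 ± 0.14 on average, and none of these differences passed (limma adjusted p = 0.999, 0.300 and 0.145); the last passed after quantile normalization (-0.55, 0.0247).

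The Fancd2 result in WT EtopoTopo passed in all 16 settings in which it was tested, with changes of -1.02 to -0.82 and adjusted p up to 0.0302. Within 4-week-old mice the 3 EtopoTopo arrays were 0.93 below WT DMSO 3, where the difference over all arrays was 0.92, and without both arrays of conflicting label it was -0.82 (limma adjusted p = 0.0302, the remaining array being assumed to vary like other groups). The Topo result was -0.64 within 6 weeks; it was lost without WT Topo 1 (-0.60, adjusted p = 0.0546) and without the 3 arrays labelled male (-0.55, 0.0907). The difference from Etopo was -0.67 within 4 weeks and was lost with age as a covariate (-0.62, 0.176), without both arrays of conflicting label (-0.45, 0.295), without WT Etopo 1 (-0.49, 0.141) and without WT EtopoTopo 2 (-0.49, 0.0981).

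Fanci read 7.01, 7.05 and 7.29 in WT DMSO and 6.86, 6.59 and 6.67 in WT EtopoTopo. The arrays did not overlap, and Fanci fell by 0.41 ± 0.12 on the log2 scale (limma adjusted p = 0.0375). It was 0.59 lower within 4 weeks and passed in 7 of 15 settings, among them age as a covariate (-0.60, 0.0204). In knockouts it was 6.61, 6.69 and 6.68 under Topo against 7.04, 6.98 and 7.15 in DMSO, which did not pass (-0.39 ± 0.12, limma adjusted p = 0.169) although the arrays were separate. Fanca and Fancb belong to the core complex that ubiquitinates that pair. Neither passed, with changes of -0.13 to 0.26 for Fanca and -0.22 to 0.35 for Fancb over the 7 comparisons drawn in the plot of changes. Fancb was 0.35 ± 0.15 higher in KO than WT (adjusted p = 0.106), which passed after quantile normalization (0.52, 0.0319).

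**Figure D2:**
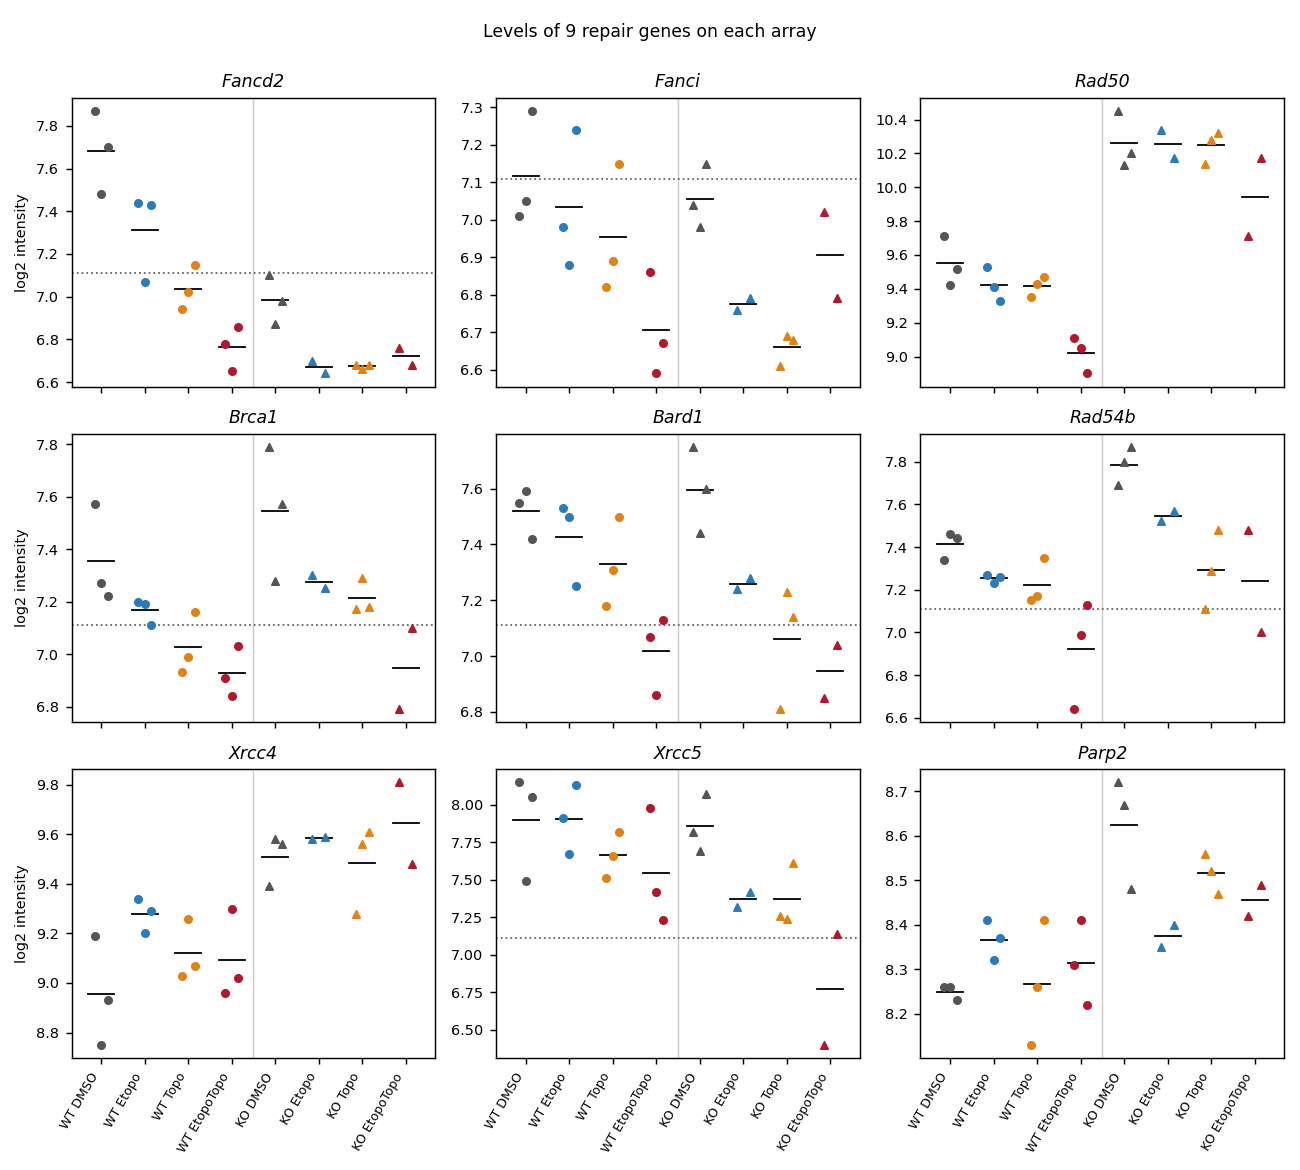
Log2 intensity of 9 repair genes (vertical axes) on each of the 22 arrays by group (horizontal axis), with a dotted line at 7.11, the 95th percentile of the silent receptor genes. Fancd2 lies above the line on the 3 WT DMSO arrays and below it on all 10 KO arrays, and Rad50 is higher on the KO DMSO arrays (10.13 to 10.45) than on the WT DMSO arrays (9.42 to 9.71).

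Among the sensors and mediators 9 genes were measured. Rad50 is a subunit of the complex with Mre11 and Nbn that binds broken ends and activates ATM. It read 9.71, 9.42 and 9.52 in WT DMSO and 10.45, 10.13 and 10.20 in KO DMSO. The KO arrays were all higher, 1.64-fold on average (0.71 ± 0.13, limma adjusted p = 0.000317), and the difference passed in all 16 settings (0.61 to 0.79); within 6 weeks it was 0.70. In WT EtopoTopo Rad50 read 9.11, 9.05 and 8.90, below every other array of the series. It fell by 0.53 ± 0.13 (limma adjusted p = 0.01), and by 0.50 within 4 weeks, but it did not pass with age as a covariate (-0.47, 0.146), without WT DMSO 1 (-0.45, 0.063), without both arrays of conflicting label (-0.65, 0.0912) or without the 3 arrays labelled male (-0.45, 0.102).

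In knockouts Rad50 was 10.34 and 10.17 under Etopo and 10.14, 10.28 and 10.32 under Topo, in the range of KO DMSO. Under EtopoTopo it read 9.71 and 10.17, a difference of -0.32 ± 0.14 that did not pass (limma adjusted p = 0.097), with 1 of 2 arrays inside the KO DMSO range. Nbn, the partner of Rad50 that recruits ATM, was 0.29 ± 0.12 higher in KO than WT (adjusted p = 0.0959) and 0.35 ± 0.13 lower in KO EtopoTopo than KO DMSO (0.0552), and neither passed. A further Nbn probe gave -0.04 and 0.18 in those comparisons.

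Trp53bp1 encodes 53BP1, which shields broken ends from resection and favours end joining. It read 9.60, 9.23 and 9.52 in KO DMSO and 8.50 and 9.20 in KO EtopoTopo. The change of -0.60 ± 0.16 passed (n = 3 and 2, limma adjusted p = 0.0177), with the second array just below the lowest control, and without KO EtopoTopo 1 the change was -0.25 (0.545). The WT EtopoTopo arrays read 9.30, 9.22 and 9.08 against 9.62, 9.50 and 9.49; they were separate, but the change did not pass.

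The apical kinase genes Atm and Atr and the effector kinase genes Chek1 and Chek2 passed in no comparison. Atm ranged from 7.54 to 8.57 over the 22 arrays and its changes from -0.37 to 0.25. Atr differed by -0.37 ± 0.17 in KO EtopoTopo (limma adjusted p = 0.102), the largest of its changes. Chek1 read 6.65, 7.22 and 6.98 in KO Topo against 7.66, 7.36 and 7.49 in KO DMSO, separate but not past the test (-0.56 ± 0.20, limma adjusted p = 0.233). Mdc1, the adaptor that binds phosphorylated histone H2AX, moved between -0.35 and 0.12, and Rnf168, the ubiquitin ligase that brings 53BP1 to chromatin, between -0.25 and 0.26, and neither passed.

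The recombination group held 12 measured genes, of which 3 fell in EtopoTopo of both genotypes and 0 passed in any other comparison; the shares of all genes that fell were 7.28% in WT and 11.7% in KO. Brca1 and its partner Bard1 form the ubiquitin ligase that favours resection of broken ends, and Rad54b is a motor protein that acts during strand pairing. Brca1 read 7.57, 7.27 and 7.22 in WT DMSO and 6.91, 6.84 and 7.03 in WT EtopoTopo. In knockouts it read 7.79, 7.28 and 7.57 in DMSO and 6.79 and 7.10 under EtopoTopo. Neither genotype showed overlap, and Brca1 fell by 0.43 ± 0.13 in WT (limma adjusted p = 0.0394) and by 0.60 ± 0.15 in KO (0.0117). The WT call passed in 5 of 16 settings and was lost without WT DMSO 1 (-0.32, 0.196); within 4 weeks the difference was -0.29.

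Rad54b read 7.34, 7.46 and 7.44 in WT DMSO and 6.64, 6.99 and 7.13 in WT EtopoTopo. In KO it read 7.69, 7.80 and 7.87 in DMSO and 7.48 and 7.0 under EtopoTopo. Every treated array was below its controls, with falls of 0.49 ± 0.14 in WT (limma adjusted p = 0.0233; 0.52 within 4 weeks) and 0.55 ± 0.15 in KO (0.02). The WT call passed in 9 of 16 settings, and the KO change was -0.31 (0.141) without KO EtopoTopo 2, -0.78 (0.0504) without KO EtopoTopo 1 and -0.50 (0.0606) without KO DMSO 3. Every KO DMSO array was also above every WT DMSO array, by 0.37 ± 0.14 on average, which did not pass (adjusted p = 0.0613) but did after quantile normalization (0.49, 0.00462). In KO Topo Rad54b was 7.11, 7.29 and 7.48, again below KO DMSO without passing (-0.49 ± 0.14, limma adjusted p = 0.0956).

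Bard1 read 7.55, 7.59 and 7.42 in WT DMSO and 7.07, 6.86 and 7.13 in WT EtopoTopo. In KO it read 7.75, 7.44 and 7.60 in DMSO, 6.81, 7.23 and 7.14 under Topo, and 6.85 and 7.04 under EtopoTopo. All these treated arrays were below their controls. The probe fell by 0.50 ± 0.13 in WT (limma adjusted p = 0.0184; 0.40 within 4 weeks) and by 0.65 ± 0.15 in KO EtopoTopo (0.00869), and KO Topo missed the threshold (-0.53 ± 0.13, 0.0517). The 2 further Bard1 probes did not follow it: they gave -0.03 and 0.11 in WT and 0.20 and 0.33 in KO EtopoTopo, and the mean of all probes gave -0.14 (adjusted p = 0.456) and -0.04 (0.828). The Bard1 call thus rests on 1 probe of 3.

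The other recombination genes did not pass. Brca2, a mediator of strand exchange, read 6.74, 7.06 and 7.18 in WT Topo against 7.47, 7.20 and 7.39 in WT DMSO (-0.36 ± 0.15, limma adjusted p = 0.278). Exo1, the resection nuclease, read 7.01, 6.96 and 6.85 in KO Topo, all below the KO DMSO arrays at 7.29, 7.33 and 7.45 (-0.41 ± 0.16, limma adjusted p = 0.263). The helicase gene Blm changed by -0.31 to 0.07 and Wrn by -0.08 to 0.26. Rad51ap1 read 7.75 on KO EtopoTopo 1 and 6.46 to 7.22 on all other arrays, and Fanca and Polq were also highest on that array, at 8.12 and 7.31. Xrcc3, which acts in strand exchange, was 0.31 ± 0.12 higher in KO EtopoTopo than KO DMSO (adjusted p = 0.0669), which passed after quantile normalization, as given above.

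Classical end joining begins with the Ku heterodimer of Xrcc5 (Ku80) and Xrcc6 (Ku70), which recruits DNA-PK, and ends with ligation by Lig4 and its scaffold Xrcc4. Xrcc4 read 9.19, 8.75 and 8.93 in WT DMSO and 9.39, 9.58 and 9.56 in KO DMSO. The KO arrays were all higher, 1.47-fold on average (0.55 ± 0.13, limma adjusted p = 0.005), and this passed in all 16 settings (0.45 to 0.73); within 6 weeks it was 0.54. Xrcc4 did not pass under any drug, and the treated KO arrays read 9.28 to 9.81.

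Xrcc5 read 7.82, 7.69 and 8.07 in KO DMSO and 6.40 and 7.14 in KO EtopoTopo. This was the largest change of any repair gene (-1.09 ± 0.23, limma adjusted p = 0.00621). The KO EtopoTopo mean, 6.77, lay below the level of silent genes, 7.11, so no fold is given for Xrcc5. The lowest Xrcc5 value of the series was on KO EtopoTopo 1. Without that array the change was -0.72 (adjusted p = 0.231), and without the other it was -1.46 (0.000373). The other treated KO arrays, at 7.32 and 7.42 under Etopo and 7.26, 7.24 and 7.61 under Topo, also lay below KO DMSO without passing (-0.49 in both comparisons). In WT the DMSO arrays read 8.15, 7.49 and 8.05 and the EtopoTopo arrays 7.98, 7.42 and 7.23, which overlapped. Xrcc6 was 0.38 ± 0.15 lower in KO EtopoTopo (limma adjusted p = 0.0675) and passed after quantile normalization (-0.56, 0.0304). Lig4 and Prkdc, the gene of the DNA-PK catalytic subunit, changed by -0.23 to 0.15 and -0.17 to 0.13.

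Parp1 and Parp2 are the polymerases that mark strand breaks with poly(ADP-ribose). Parp2 read 8.26, 8.26 and 8.23 in WT DMSO and 8.72, 8.67 and 8.48 in KO DMSO. The sets were separate, with Parp2 1.30-fold higher in KO (0.37 ± 0.10, limma adjusted p = 0.0124; 0.36 within 6 weeks). The call was lost without both DMSO 1 arrays, those with the high thymocyte markers (0.33, 0.0767), and without KO DMSO 1 alone (0.33, 0.0558). Parp1 read 8.71, 8.72 and 8.99 in KO DMSO and 8.26 and 8.29 in KO EtopoTopo, which did not overlap. It fell by 0.53 ± 0.15 (limma adjusted p = 0.0221); without KO EtopoTopo 1 the change was as large but did not pass (-0.52, 0.234), and without KO DMSO 3 it was -0.44 (0.0784). In WT EtopoTopo Parp1 was 8.41, 8.30 and 8.27 against 8.82, 8.75 and 8.42, barely separate and not past the test (-0.34 ± 0.14, limma adjusted p = 0.117). The scaffold gene Xrcc1 moved by -0.12 to 0.02, the ligase gene Lig3 by -0.37 to -0.02, Aptx, which removes stalled ligation ends, by -0.15 to 0.26, and Polq, the polymerase of alternative end joining, by -0.19 to 0.09.

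The 6 calls in KO EtopoTopo rest on 2 arrays of 4-week-old mice against 3 of 6-week-old mice. None of the 6 passed without KO EtopoTopo 1, where 1 array remained. The change was larger there for Rad54b, at -0.78, and nearly the same for Parp1, at -0.52. The others were smaller, at -0.55 for Bard1, -0.45 for Brca1, -0.72 for Xrcc5 and -0.25 for Trp53bp1. None passed with age as a covariate, with changes from -0.37 (Parp1) to -1.37 (Xrcc5). Without KO EtopoTopo 2 the count was 14, of which Rnf168 (0.49, limma adjusted p = 0.0142), Rad51ap1 (0.69, 0.0157), Fanca (0.55, 0.00425) and Polq (0.39, 0.0329) were higher than in KO DMSO; without KO DMSO 3 it was 3. KO EtopoTopo 1 also had the lowest mean of 15 MEC markers, 11.13, against 11.44 to 11.88 on the other arrays. In KO EtopoTopo 6 of those 15 fell (median -0.37, 14 of 15 below 0), where 11.7% of all genes fell. The 6 markers included Krt5 (-1.13 ± 0.25, limma adjusted p = 0.00785) and Cd40 (-0.74 ± 0.14, 0.00296). Their part in the repair gene results was not tested. In WT EtopoTopo the 6 calls went to 2 with age as a covariate (Fancd2 and Fanci), to 1 without both arrays of conflicting label (Fancd2) and to 1 without the 3 arrays labelled male. They went to 2 without WT DMSO 1, WT DMSO 2 or WT EtopoTopo 2, and to 3 without WT EtopoTopo 3 or without both DMSO 1 arrays.

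Whether a drug acted differently in KO and WT was tested directly for each drug as the KO change minus the WT change. Of 108 tests over the repair genes 0 passed, against 0% of all genes for Etopo, 0.0759% for Topo and 2.46% for EtopoTopo; at an unadjusted p under 0.05 there were 1, 0 and 2 genes, against 4.59%, 4.74% and 14.7% of all. Fancd2 came nearest under EtopoTopo, with a difference of 0.65 ± 0.18 (95% interval 0.27 to 1.04, limma adjusted p = 0.0624). It passed without WT DMSO 2 (0.75, 0.0379) and without WT Etopo 2 (0.65, 0.0493) or KO EtopoTopo 2 (0.70, 0.0231). Since Fancd2 lay below the level of silent genes on all 10 KO arrays, DMSO included, a smaller fall in KO and a lower limit of the signal cannot be told apart. The Fancd2 difference was 0.34 ± 0.17 for Topo and 0.05 ± 0.18 for Etopo (limma adjusted p = 0.998 and 0.991). For Xrcc5 the EtopoTopo difference was -0.74 ± 0.31 (95% interval -1.39 to -0.09, adjusted p = 0.274), and it passed without KO EtopoTopo 2 (-1.11, 0.0216). These comparisons share each genotype's DMSO arrays with the drug comparisons above.

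**Figure D3:**
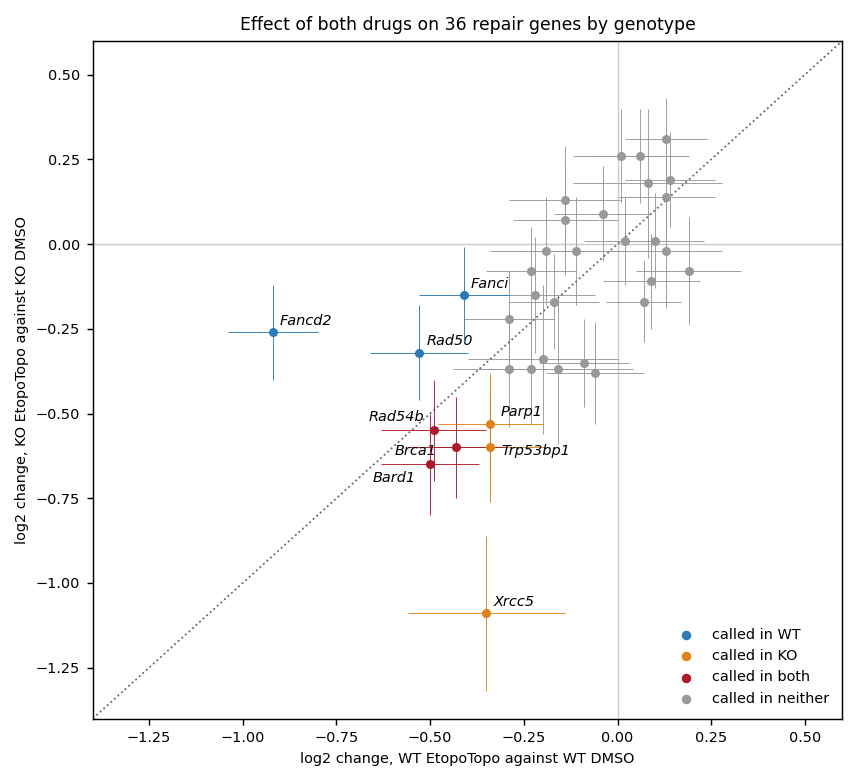
Log2 change under EtopoTopo in WT (horizontal axis) and KO (vertical axis) for the 36 repair genes, with bars of 1 SE and a dotted line of equal change. Fancd2 lies left of the line (-0.92 in WT, -0.26 in KO), Xrcc5 below it (-0.35 and -1.09), and Brca1, Bard1 and Rad54b passed in both genotypes.

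By general knowledge 14 of the 36 genes are transcribed mainly in S and G2 phase (Brca1, Brca2, Bard1, Chek1, Exo1, Blm, Rad51ap1, Rad54l, Rad54b, Fanca, Fancb, Fancd2, Fanci and Polq). Their median log2 change was -0.09 in WT Etopo, where that of all genes was -0.04 and 9 of the 14 were below 0 (61% of all genes). It was -0.19 in WT Topo and -0.19 in WT EtopoTopo, and -0.30, -0.36 and -0.15 in KO Etopo, Topo and EtopoTopo. Over all genes the medians of these last 5 comparisons were 0.00, -0.01, 0.02, 0.01 and 0.06. The change was below 0 for 14 of 14 in WT Topo, KO Etopo and KO Topo, for 12 in WT EtopoTopo and for 9 in KO EtopoTopo. For the other 22 genes the medians were 0.01 in WT Etopo and then -0.03, -0.08, -0.12, -0.11 and -0.14. Of the calls in EtopoTopo, 5 of 6 in WT and 3 of 6 in KO were on these genes.

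**Figure D4:**
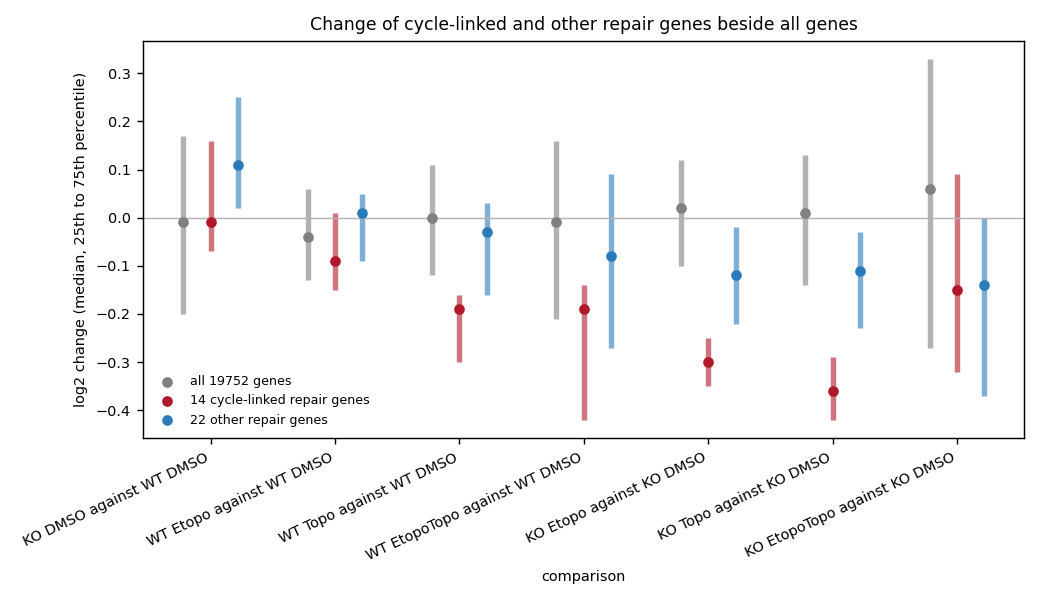
Median log2 change with the 25th to 75th percentile (vertical axis) of all genes, the 14 cycle-linked and the 22 other repair genes in 7 comparisons (horizontal axis). The cycle-linked median is lowest in KO Topo, at -0.36, where the median of all genes is 0.01.

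All 36 repair genes had a median of -0.22 in KO Etopo and -0.19 in KO Topo, with 32 of 36 below 0 in each, where 46.1% and 48.8% of all genes were. In KO Etopo 18 of the 36 (50%) were lower on every treated array than on every control array, against 12.8% of all genes; in KO Topo 16 (44.4%) were, against 8.79%. Without both DMSO 1 arrays the counts were 21 (58.3%, against 23.5%) and 18 (50%, against 17.9%). None of these genes passed the adjusted test. In WT the counts were 4 under Etopo (7.31%), 6 under Topo (11.4%) and 10 under EtopoTopo (18.5%), and in KO EtopoTopo 12 (18.9%).

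Median changes of the proliferation lists (mitosis and DNA replication) were also below 0 under the drugs. For the replication list they were -0.02, -0.19 and -0.27 in WT Etopo, Topo and EtopoTopo, and -0.39, -0.37 and -0.44 in KO. In KO EtopoTopo the median was -0.73 for the mitosis list and -0.15 for the cycle-linked repair genes, 5 of which were above 0. The mean of the 14 cycle-linked genes was 7.27 on KO EtopoTopo 1 and 7.05 on KO EtopoTopo 2. It was 7.01 to 7.03 in KO Etopo and 6.92 to 7.02 in KO Topo. The proliferation lists, like the repair genes, were chosen with earlier results of these data known. As background for the counts that follow, 1.38% of all genes fell in WT Topo, 7.28% in WT EtopoTopo and 11.7% in KO EtopoTopo. In KO Topo 1.03% of all genes passed in either direction. Of 28 mitosis genes 6 fell in WT Topo (median -0.54), 23 in WT EtopoTopo (-0.76), 17 in KO Topo (-0.79) and 19 in KO EtopoTopo (-0.73). In KO Etopo 0 passed (median -0.74, with 28 of 28 below 0), and in WT Etopo 0 passed (-0.12). Top2a, the type II topoisomerase of dividing cells, fell by 1.29 ± 0.27 in WT EtopoTopo and 1.64 ± 0.30 in KO EtopoTopo (limma adjusted p = 0.00359 and 0.00297). Of 32 DNA replication genes 0, 6, 5 and 16 fell in WT Topo, WT EtopoTopo, KO Topo and KO EtopoTopo, with Rrm2 at -0.87 ± 0.21, -1.28 ± 0.21 and -1.16 ± 0.23 in the last 3. Of the 16 thymocyte markers 1 fell in WT Topo (Thy1), 2 in WT EtopoTopo and KO Topo (Thy1 and Cd4) and 1 in KO EtopoTopo (Cd4). Their medians were -0.51 to -0.68 over the 6 drug comparisons. The controls include the DMSO 1 arrays, whose list means were 8.18 in WT and 8.63 in KO. The other DMSO arrays read 7.38 and 7.29 in WT and 7.42 and 7.15 in KO. Treated arrays read 6.88 to 7.21 in WT and 7.01 to 7.51 in KO. Tuft-like epithelial markers moved the other way: of 13, 6 rose in WT Topo, 10 in WT EtopoTopo, 2 in KO Topo and 5 in KO EtopoTopo. Of all 19752 genes 164, 711, 50 and 2194 rose in those comparisons. The part of the proliferation, tuft-like and thymocyte transcripts in the repair gene results was not tested.

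**Figure D5:**
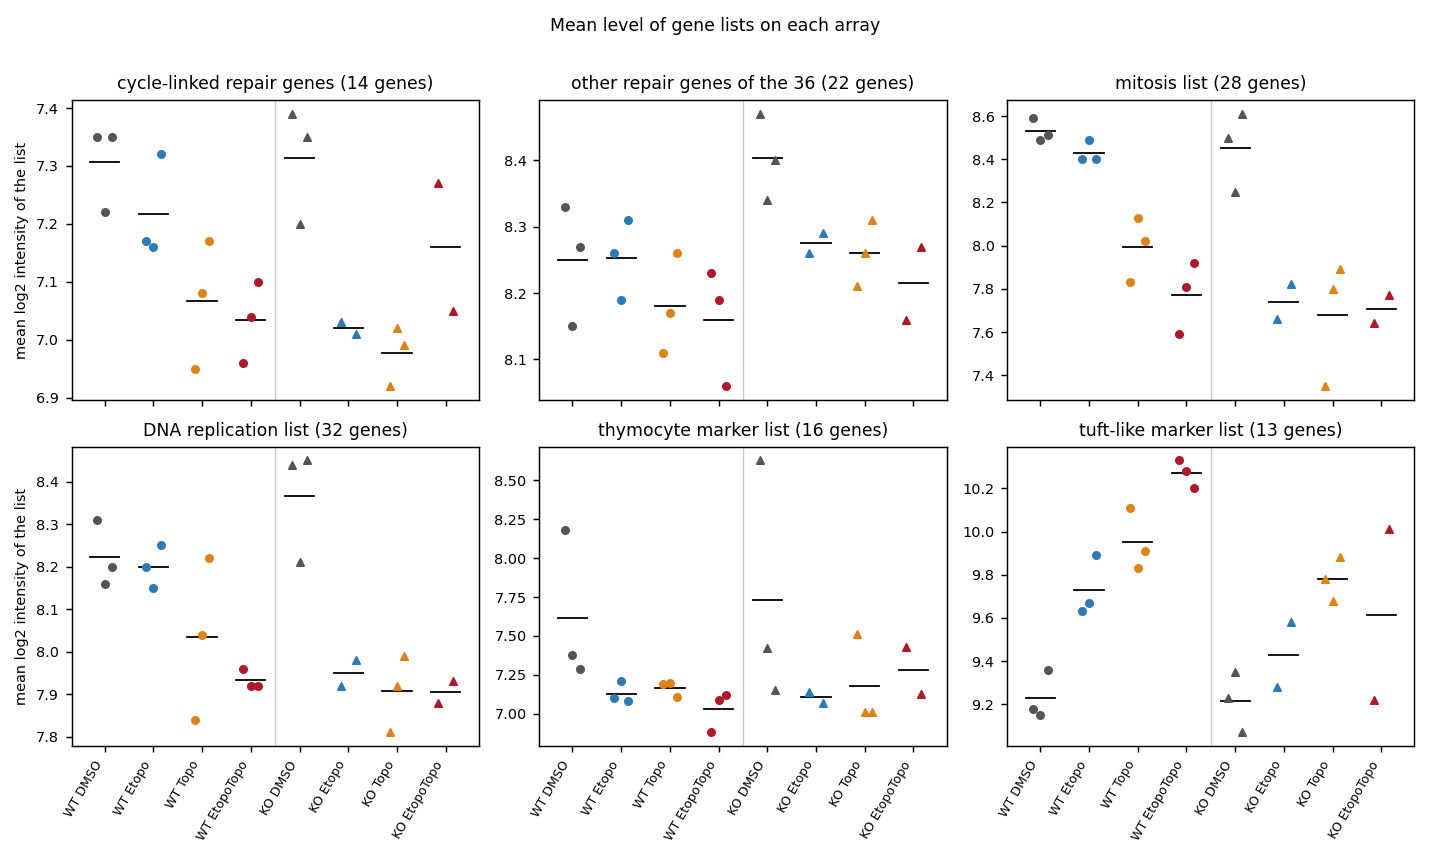
Mean log2 intensity of 6 gene lists (vertical axes) on each array by group (horizontal axis). The mitosis list lies at 8.49 to 8.59 in WT DMSO and 7.59 to 7.92 in WT EtopoTopo, and the thymocyte list is highest on KO DMSO 1 (8.63) and WT DMSO 1 (8.18).

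Of 45 further repair and checkpoint genes 41 were measured. Without drug 6 were higher in KO and 0 lower (7.4% and 12% of all genes), among them Rad17 (0.71 ± 0.13, limma adjusted p = 0.00054) and Rad1 (0.60 ± 0.20, 0.0349), parts of the checkpoint clamp machinery, and Fancl (0.60 ± 0.15, 0.00524), the ubiquitin ligase that modifies Fancd2. Their median was 0.09, where that of the 36 genes was 0.08 and that of all genes -0.01. Under drug 1 fell in WT Topo (1.38% of all genes) and 2 in WT EtopoTopo (7.28%), with Cdc25c, the phosphatase that admits cells to mitosis, in both (-0.66 ± 0.17 and -0.89 ± 0.17, limma adjusted p = 0.0456 and 0.00226). In KO 1 fell under Topo (Gen1, a resolvase, -0.60 ± 0.14, 0.0356) and 7 under EtopoTopo (11.7% of all genes), among them Wee1 (-0.70 ± 0.20, 0.0207) and Fancl (-0.68 ± 0.16, 0.0117).

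Of 26 measured p53 target genes 7 were higher and 2 lower in KO than WT without drug (7.4% and 12% of all genes). Sesn1 (1.04 ± 0.16, limma adjusted p = 4.7e-05) and Eda2r (1.03 ± 0.19, 0.000431) changed the most. Under drug 0 rose and 1 fell in WT Topo (1.38% of all genes fell). In WT EtopoTopo 2 rose and 3 fell (7.28% of all genes fell). The risers were Plk2 (0.90 ± 0.27, limma adjusted p = 0.0317) and Polk (0.44 ± 0.13, 0.0366). In KO Topo 0 rose and 1 fell (1.03% of all genes passed in either direction). In KO EtopoTopo 0 rose and 4 fell (11.7% of all genes fell). Tnfrsf10b, a death receptor gene, fell in WT Topo (-0.76 ± 0.15, limma adjusted p = 0.00648), WT EtopoTopo (-0.56 ± 0.15, 0.0157), KO Topo (-0.65 ± 0.15, 0.03) and KO EtopoTopo (-0.65 ± 0.16, 0.0126).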

How the data were processed

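The authors deposited 1 table of linear probe intensities for 22 arrays; per the submitters' processing notes the tools were Affymetrix Power Tools with RMA, and their versions and settings are not given in the sources used here. The design had assumed log2 values; the deposited intensities were linear, so log2 was taken with no pseudocount. Of 24922 probes 21425 had 1 gene symbol in the platform annotation, 1399 several and 2098 none; the single-symbol probe with the highest mean was kept for each of 19752 genes. Groups followed the titles. limma 3.58.1 (R 4.3.3) fitted 1 mean per group over all 22 arrays, with moderated variances (14 residual and 7.22 prior degrees of freedom) and Benjamini-Hochberg adjustment over all genes in each of 12 comparisons. A gene was called at an adjusted p under 0.05; the script was tested on simulated data. The number of arrays, 2 or 3 a group, limits the precision.

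The genes and lists were chosen with earlier results of these data known. All listed genes could be named, with array values for those called and, of the other lists, up to 4 called genes with the largest change. Levels of different probes were not compared. Alternatives were quantile normalization, leaving out the lowest 25% of genes, a pseudocount of 16, the mean of all probes per gene, a robust variance trend, age as a covariate, a replicate block, and leaving out arrays; leaving out the 3 arrays labelled male was added after seeing the data. Promoter windows are from RefSeq, GRCm38.p6.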

Additional observations from a re-analysis of the deposited data

How the results depend on the processing

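Arrays were left out singly from the groups each comparison sets against each other. No change of a called gene reversed under any alternative; 215 of the tests of single genes kept their side of the threshold and 66 fell short of it. The number of repair genes called in KO against WT went from 4 to 7 with quantile normalization (adding Rad54b, Fancb and Aptx) and was 3 to 5 leaving out 1 array at a time. In WT Topo it went from 1 to 0 without the 3 arrays labelled male and was 0 to 1 leaving out 1 array (0 without WT Topo 1). In WT EtopoTopo it went from 6 to 2 with age as a covariate, 1 without both arrays of conflicting label, 3 without both thymocyte-high DMSO arrays and 1 without the 3 arrays labelled male, and was 2 to 4 leaving out 1 array. In KO Topo it went from 0 to 1 (Bard1) without the lowest 25% of genes, with a pseudocount of 16, with a robust variance trend and with age as a covariate, and was 0 to 1 leaving out 1 array. In KO EtopoTopo it went from 6 to 11 with quantile normalization and 0 with age as a covariate, and was 0 to 14 leaving out 1 array. In WT EtopoTopo against WT Etopo it went from 1 to 2 with quantile normalization, 0 without both arrays of conflicting label and 0 with age as a covariate, and was 0 to 1 leaving out 1 array. For the difference of the EtopoTopo effect between genotypes it went from 0 to 1 (Fancd2, 0.68, limma adjusted p = 0.0412) with a replicate block and was 0 to 4 leaving out 1 array. Arrays of other groups enter through the shared variance: without KO EtopoTopo 1 or 2 the count was 2 in KO Topo (Bard1 and Rad54b), and Rad50 passed too in WT EtopoTopo against WT Etopo, as Bard1 did without KO Topo 1. Fewer arrays leave less power, and the cause of the other shifts was not tested. Over all genes, arrays of the same replicate number had a median correlation of deviations of -0.05 (71 pairs across groups, from -0.56 to 0.59). For arrays of different number it was 0 (140 pairs, -0.5 to 0.56), so the numbers were not taken as pairs. The thymocyte list mean was nevertheless highest on replicate 1 in WT DMSO and in every KO group, though not in drug-treated WT groups. The replicate block moved the count in WT EtopoTopo from 6 to 5 and otherwise kept all counts but the one above. Quantile normalization moved the split of all genes called higher and lower from 711 and 1438 to 1380 and 1580 in WT EtopoTopo, and from 50 and 154 to 60 and 101 in KO Topo. The median change of the repair genes kept its sign in all comparisons except WT Etopo (-0.10 to 0.01) and the EtopoTopo difference between genotypes (-0.14 to 0.04). Signal over background limits the 7 genes whose mean lies below the 95th percentile of silent receptor genes. It also limits called falls of other genes whose treated group mean ended below that level, 7.11. For Brca1 these means were 6.93 in WT EtopoTopo and 6.94 in KO EtopoTopo, and for Bard1 7.02 and 6.95. They were 6.92 for Rad54b in WT EtopoTopo and 6.77 for Xrcc5 in KO EtopoTopo.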
